A study of Mus musculus with 45 samples.

Results

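The 9 genes described here serve the making and release of glucose or the use of fructose in the proximal tubule, Ppargc1a as a transcriptional coactivator. They were chosen by name: Pck1, Pck2, Pcx, Fbp1, G6pc, Slc37a4, Khk, Tkfc and Ppargc1a, of 55401 gene identifiers in the count tables. All 9 passed the filter on low counts in both sexes and were among the 15991 protein-coding genes tested in males and the 15968 tested in females. The study purified ribosome-bound RNA from kidneys of 45 mice by translating ribosome affinity purification (TRAP), in which an EGFP-tagged ribosomal protein, Rpl10a, is switched on by Cre so that only recombined cells contribute to the pulldown. Every mouse carried RosaEGFP-Rpl10a, Pax8rtTA and TetOCre, was given doxycycline from postnatal day 28 to 42 and was taken at 7 weeks (P49). Noncystic mice were Pkd1fl/+ (labelled wild type, 8 males and 7 females), Pkd1KO mice were Pkd1fl/fl (7 males and 8 females), and Pkd1KO+ciliaKO mice were Pkd1fl/fl; Kif3afl/fl and so also lost the ciliary motor subunit Kif3a (9 males and 6 females). The noncystic mice therefore also carried 1 floxed Pkd1 allele, and Pax8rtTA drives Cre along the tubule rather than in the proximal tubule alone. The question put to these genes was whether their translated mRNA differed when polycystin-1 was lost, whether loss of cilia changed that difference, and how males and females compared. Feeding state at harvest is not given in the sources used here.

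The kidney cortex is, with the liver, a main site of glucose production. In the proximal tubule, pyruvate carboxylase (Pcx) turns pyruvate into oxaloacetate inside mitochondria, phosphoenolpyruvate carboxykinase (Pck1 in the cytosol, Pck2 in mitochondria) turns oxaloacetate into phosphoenolpyruvate, fructose-1,6-bisphosphatase (Fbp1) removes a phosphate further up the path, and glucose-6-phosphatase (G6pc), fed by the glucose-6-phosphate transporter of the endoplasmic reticulum (Slc37a4), frees glucose. Ketohexokinase (Khk) and triokinase (Tkfc) carry fructose into the same triose pool, and Ppargc1a (PGC-1 alpha) is a transcriptional coactivator known for raising mitochondrial and gluconeogenic genes.

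In the coordinates of the deposited tables (GRCm38.p6), the enzymes of the carboxylation step and its partner lie at chr19:4510472-4621752 on the + strand (Pcx), chr2:173153048-173159273 on the + strand (Pck1) and chr14:55540266-55551242 on the + strand (Pck2). The phosphatase steps lie at chr13:62864753-62888282 on the - strand (Fbp1), chr11:101367561-101377903 on the + strand (G6pc) and chr9:44396852-44402968 on the + strand (Slc37a4). Khk spans chr5:30921431-30931248 on the + strand, Tkfc spans chr19:10587791-10605654 on the - strand, and Ppargc1a spans chr5:51454250-51567726 on the - strand. Tkfc shares 924 exon bases with Cyb561a3 and Ddb1, and Pck2 shares 53 with the antisense gene Gm10876. Since strand use in counting is not stated, the values of Tkfc and Pck2 are given as uncertain.

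The sequences around RefSeq starts are printed here for the 2 enzymes lower in Pkd1KO males (Pck1 and Pcx), for Khk, which differed in females, and for the pair most alike from mouse to mouse (Slc37a4 and G6pc), 250 bases before to 50 after the start on GRCm38.p6, with the searched letters in capitals. The motifs searched on both strands included TGACGTCA (the full cAMP response element) and TGACG, which lies within it, TGTTTAC (a forkhead motif), the E-box CACGTG, and 2 longer motifs known as the HNF4 direct repeat and the glucocorticoid response element.
Pck1, chr2:173152823-173153122, + strand: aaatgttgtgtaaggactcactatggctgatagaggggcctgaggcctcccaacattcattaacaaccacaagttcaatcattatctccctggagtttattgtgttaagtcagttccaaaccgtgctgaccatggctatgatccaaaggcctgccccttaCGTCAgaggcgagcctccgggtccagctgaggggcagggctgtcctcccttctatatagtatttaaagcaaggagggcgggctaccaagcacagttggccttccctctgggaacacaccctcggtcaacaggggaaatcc
Pcx, chr19:4510222-4510521, + strand: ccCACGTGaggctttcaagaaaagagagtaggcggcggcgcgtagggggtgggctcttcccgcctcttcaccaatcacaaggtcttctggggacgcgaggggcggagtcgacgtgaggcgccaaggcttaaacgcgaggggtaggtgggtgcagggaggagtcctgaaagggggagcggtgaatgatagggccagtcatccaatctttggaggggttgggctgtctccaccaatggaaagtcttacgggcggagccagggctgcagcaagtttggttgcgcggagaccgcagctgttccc
Khk, chr5:30921309-30921608, + strand: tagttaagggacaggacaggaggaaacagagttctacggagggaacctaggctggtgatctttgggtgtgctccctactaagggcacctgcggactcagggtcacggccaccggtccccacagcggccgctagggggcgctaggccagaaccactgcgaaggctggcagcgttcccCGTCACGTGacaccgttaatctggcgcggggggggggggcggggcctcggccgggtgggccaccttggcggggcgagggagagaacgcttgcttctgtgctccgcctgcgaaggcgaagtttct
Slc37a4, chr9:44396849-44397148, + strand: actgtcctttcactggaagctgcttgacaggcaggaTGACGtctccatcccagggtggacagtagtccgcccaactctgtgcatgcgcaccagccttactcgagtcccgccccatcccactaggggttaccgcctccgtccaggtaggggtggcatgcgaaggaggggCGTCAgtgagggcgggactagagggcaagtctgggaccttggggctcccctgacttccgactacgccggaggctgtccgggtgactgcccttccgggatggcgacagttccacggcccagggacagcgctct
G6pc, chr11:101367466-101367765, + strand: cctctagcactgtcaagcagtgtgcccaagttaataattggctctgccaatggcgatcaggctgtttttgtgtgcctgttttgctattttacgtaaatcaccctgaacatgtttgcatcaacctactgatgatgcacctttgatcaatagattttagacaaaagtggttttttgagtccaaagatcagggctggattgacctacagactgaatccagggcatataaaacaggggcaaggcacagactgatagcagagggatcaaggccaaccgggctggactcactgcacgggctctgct

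TGACG begins 90 bases before the start of Pck1 and 74 before that of Khk, where it overlaps CACGTG. The Slc37a4 window shown holds TGACG at 214 and 82 bases before the start. Of the 9 genes, 4 held TGACG in at least 1 of their windows (the fourth is Ppargc1a, 49 bases before its start), against 20.8% of the 32851 promoter windows in the table. CACGTG was found for Khk and, at 248 bases before the first of its 2 starts, for Pcx, against 7.15% of windows. TGACGTCA (1.79% of all windows), TGTTTAC (3.65%), the HNF4 direct repeat (0.0396%) and the glucocorticoid response element (0.00913%) were in none of the 12 windows of the 9 genes. The counts of genes cover 12 windows, some genes having more than 1, while the shares are per window, so the 2 are not on the same scale. These are matches of letters in 300 bases, not measured binding.

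Each library held 80874556 to 132958186 counts (median 103070359). The level of Kif3a, the gene deleted in the double knockouts, was 4.90 to 7.45 CPM (the count relative to library size, scaled by the trimmed mean of M-values) in the 9 Pkd1KO+ciliaKO males and 13.8 to 29.3 CPM in the other males. In females, the library labelled noncystic replicate 5 (6.69 CPM) and the library labelled Pkd1KO+ciliaKO replicate 6 (20.7 CPM) went against their labels. The glucose cotransporter Slc5a2 did so too, at 6.89 CPM in the first, against 72.6 to 92.5 CPM in the other noncystic females. It was 67.1 CPM in the second, against 2.24 to 5.37 CPM in the other Pkd1KO+ciliaKO females. Whether the 2 libraries were exchanged was not tested, and the main fits kept them as labelled. The total of Pkd1, of which floxing removes only some exons, was -0.45 ± 0.15 (log2, SE) in Pkd1KO against noncystic males, with an edgeR adjusted p of 0.0991. In Pkd1KO+ciliaKO against noncystic males it was -0.13 ± 0.18. Against noncystic females it was -0.22 ± 0.13 in Pkd1KO and 0.08 ± 0.08 in Pkd1KO+ciliaKO females, and none of these passed. On the first principal component of the males (30.4% of variance), noncystic replicate 3 (26.0), Pkd1KO replicate 4 (61.0) and Pkd1KO+ciliaKO replicates 6 (43.3) and 8 (58.7) lay farthest to one side. The next there, Pkd1KO+ciliaKO replicate 9 (19.7) and Pkd1KO replicate 3 (19.5), were kept. So were noncystic replicates 5 (-39.4) and 2 (-29.8) on the other side. Values for the 9 genes are also given without the 6 libraries that stood apart on this axis or went against their labels. This was done where leaving them out changed the call, and for some others. Pcx kept its calls, at -0.62 ± 0.13 in Pkd1KO and -0.76 ± 0.15 in Pkd1KO+ciliaKO against noncystic males (log2, SE). The 16 proximal tubule markers were detected in every group, with summed levels of 11940 to 26170 CPM in males and 12820 to 17910 CPM in females.

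On the TPM scale, which divides counts by transcript length and library total (set separately for the male and the female table), the order of the 9 genes was steep. Pck1 was the most abundant, with a median of 4109 TPM over the 45 mice (2216 to 8099). Fbp1 followed at 1645 TPM (1210 to 2097) and Khk at 703 TPM (469 to 918). The biotin-dependent enzyme Pcx had a median of 299 TPM (186 to 642) and G6pc one of 259 TPM (115 to 528), and these wide ranges overlapped. Tkfc (190 TPM), Slc37a4 (107 TPM) and the coactivator Ppargc1a (79.6 TPM) came next. The mitochondrial isoform Pck2 was lowest at 10.7 TPM (6.66 to 18.8). The counts behind these values ran from 1812 for Pck2 to 832066 for Pck1.

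**Figure D1:**
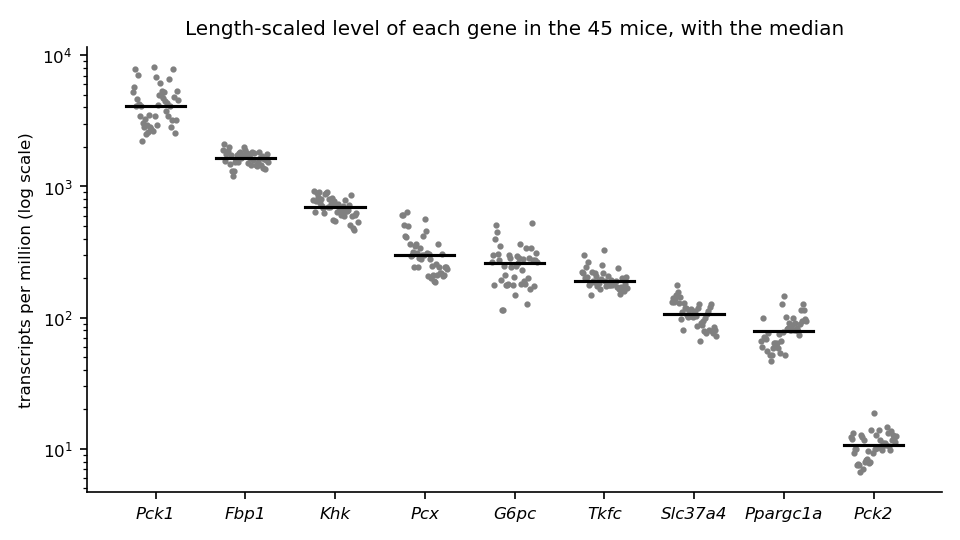
Level of each of the 9 genes in TPM (vertical axis, log scale), 1 point per mouse for 45 mice, with the line at the median. Pck1 (median 4109 TPM) and Pck2 (median 10.7 TPM) mark the top and the bottom of the range.

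In males, Pck1, Pcx and Ppargc1a were lower after loss of Pkd1. These 3 of the 9 genes passed the threshold in Pkd1KO against noncystic males, all lower, when 6.30% of all genes tested passed it in either direction and 2.25% were lower (edgeR, quasi-likelihood F test, Benjamini-Hochberg adjusted p at most 0.05). All 9 estimates were below 0, with a median log2 fold change of -0.28 against -0.0075 over all genes.

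Pck1 ranged from 3928 to 8369 CPM in noncystic males (median 5756, n = 8) and from 2843 to 5158 CPM in Pkd1KO males (median 3415, n = 7). All but 1 of the Pkd1KO males lay below the lowest noncystic male, and replicate 1, at 5158 CPM, made the groups overlap. The log2 fold change was -0.78 ± 0.17 (SE), 1.72-fold lower, with an edgeR adjusted p of 0.0107, and -0.68 ± 0.17 (edgeR adjusted p = 0.0297) without the libraries that stood apart.

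Pcx, which supplies the oxaloacetate that Pck1 consumes, ranged from 580 to 1057 CPM in noncystic males (median 770) and from 341 to 597 CPM in Pkd1KO males (median 516). Again 6 of the 7 Pkd1KO males were below every noncystic male, and the overlap was narrow, 597 CPM in Pkd1KO replicate 2 against 580 CPM in noncystic replicate 8. Pcx fell by 0.67 ± 0.15 on the log2 scale, 1.59-fold, with an edgeR adjusted p of 0.0114.

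Ppargc1a ranged from 132 to 188 CPM in noncystic males (median 158) and from 114 to 145 CPM in Pkd1KO males (median 129). Of the Pkd1KO males, 4 were below the lowest noncystic male. The difference was small, -0.28 ± 0.08 on the log2 scale, and its edgeR adjusted p of 0.0426 held in 2 of 10 alternative analyses and in 5 of 15 fits that left out 1 mouse. Without the 2 libraries that stood apart in this comparison it was -0.21, with an edgeR adjusted p of 0.119.

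The terminal steps gave lower estimates that did not pass. G6pc ranged from 122 to 424 CPM in noncystic males and from 81.9 to 313 CPM in Pkd1KO males, so that the groups overlapped through most of their range. Its log2 fold change of -0.69 ± 0.28 was about as large as that of Pck1 but with a larger error (edgeR adjusted p = 0.156). Slc37a4, its transporter partner, gave -0.31 ± 0.13 (edgeR adjusted p = 0.188), and Tkfc gave -0.22 ± 0.09 (edgeR adjusted p = 0.174). The remaining 3 genes, Fbp1, Pck2 and Khk, lay between -0.25 (Fbp1) and -0.02 (Khk).

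**Figure D2:**
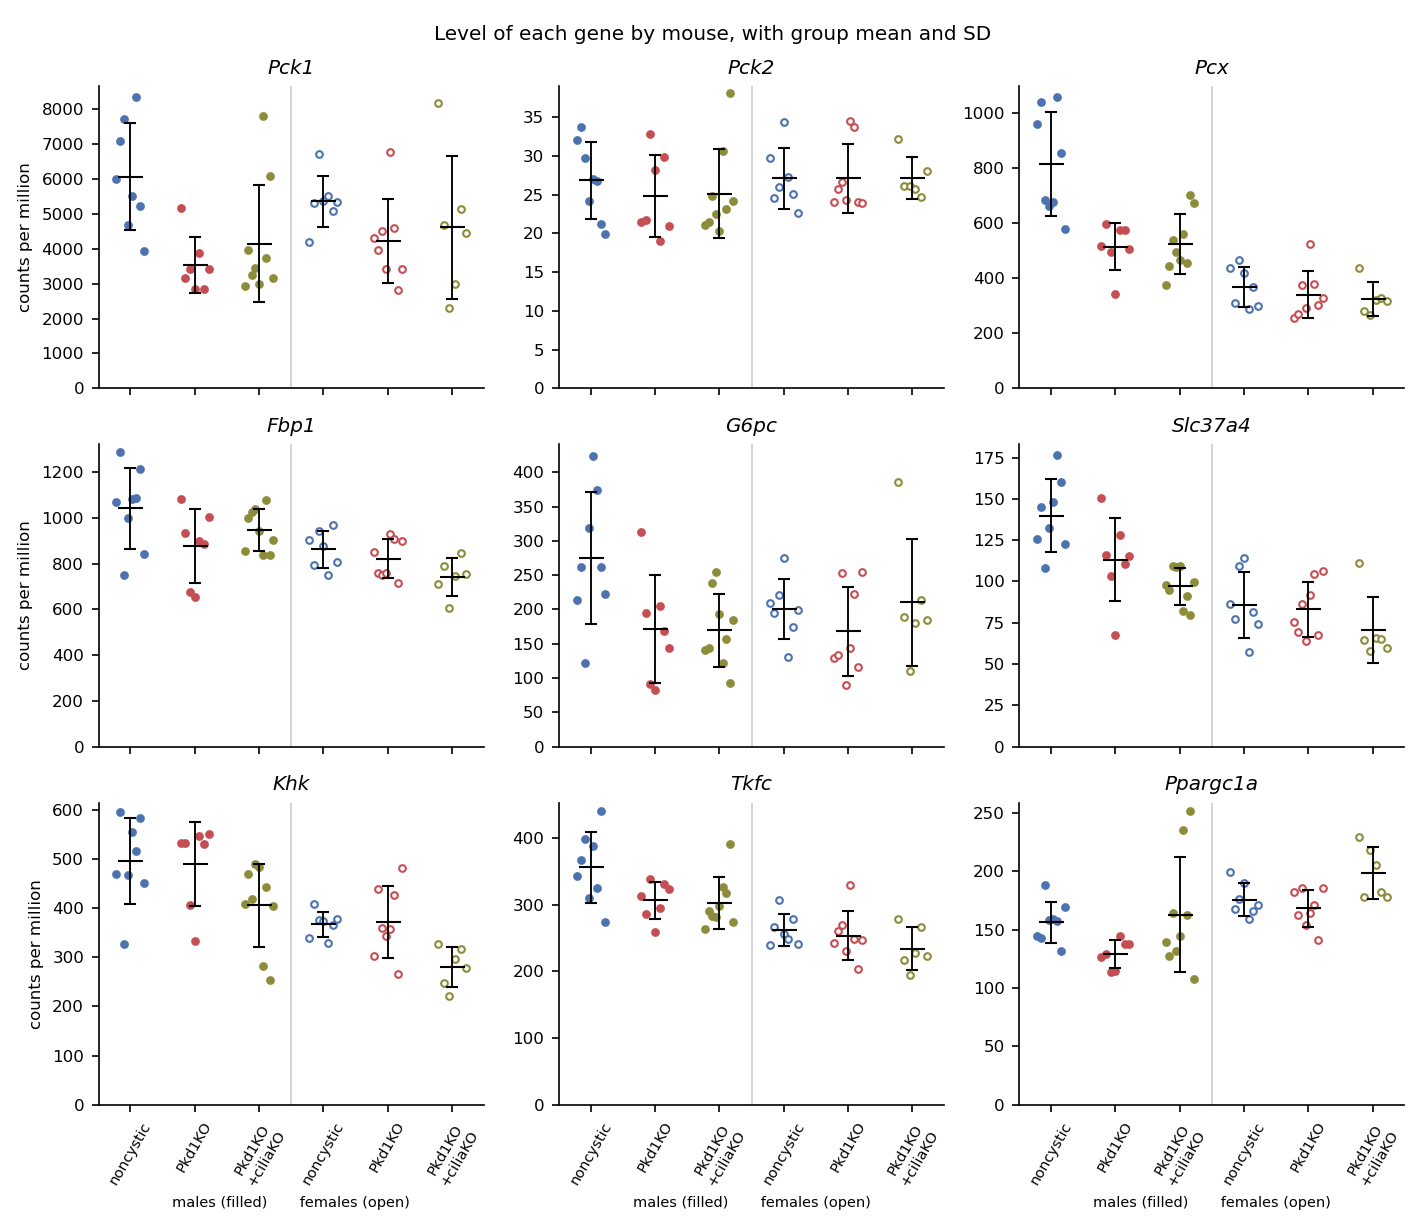
CPM (vertical axes, from 0) of the 9 genes in each mouse, by genotype, with males as filled and females as open points and bars at the mean ± SD of 6 to 9 mice. Pck1 and Pcx in Pkd1KO males sat mostly below the noncystic males, Pcx was higher in every noncystic male than in every noncystic female, and Pkd1KO+ciliaKO males 6 and 8 carried the high Pck1 values of 7813 and 6084 CPM.

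Proximal tubule markers moved in the same direction in these males. Of 16 markers, 3 were lower (Cubn, Gatm and Miox), none was higher, and the median log2 fold change was -0.28; their summed level was 14550 to 26170 CPM in noncystic and 11940 to 21850 CPM in Pkd1KO males. Of 4 tubule injury markers, 2 were higher, with summed levels of 13.7 to 68.5 CPM in noncystic and 23.3 to 159 CPM in Pkd1KO males. Among markers of other cells, the macrophage receptor Csf1r (0.35, 1 of 3) and the mast cell gene Ms4a2 (3.31, the 1 of 3 tested) were higher, and Slc12a1 of the thick ascending limb (-0.72, 1 of 3) was lower. The summed levels were 65.3 to 91.8 CPM in noncystic and 89.5 to 185 CPM in Pkd1KO males for macrophages and at most 3.49 CPM for mast cells. Their part in the falls of the 9 genes was not tested. In bulk RNA, fewer cells of a type and less RNA per cell cannot be told apart. With the mean log2 level of the 16 markers added to the fit, Pck1 was -0.77 ± 0.18 (edgeR adjusted p = 0.0197) and Pcx was -0.52 ± 0.14 (edgeR adjusted p = 0.04). G6pc shrank to -0.21 ± 0.19, Slc37a4 to -0.08 ± 0.08 and Fbp1 to -0.06 ± 0.10 in that fit. Ppargc1a gave -0.29 ± 0.09 there, with an edgeR adjusted p of 0.0555.

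**Figure D3:**
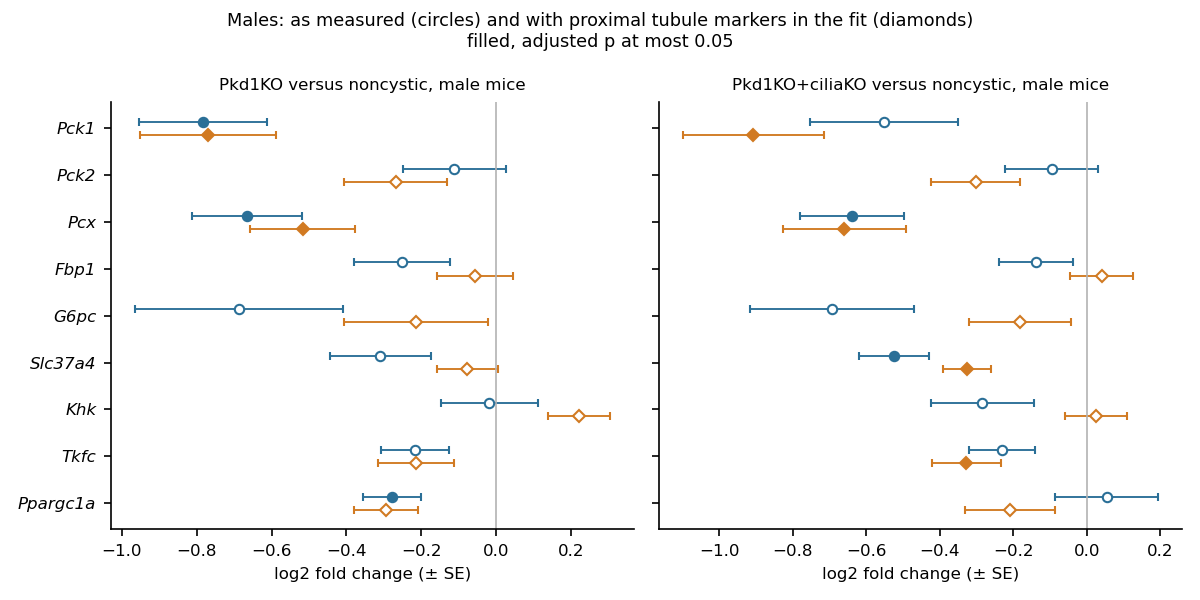
Log2 fold changes (horizontal axes, ± SE) in Pkd1KO males (7 against 8 mice) and Pkd1KO+ciliaKO males (9 against 8 mice) relative to noncystic males, as measured (circles) and with 16 proximal tubule markers in the fit (diamonds), filled where the adjusted p is at most 0.05. Pck1 in Pkd1KO males gave -0.78 and -0.77, while G6pc moved from -0.69 to -0.21.

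Pcx was also lower in males that had lost cilia as well as polycystin-1. Against noncystic males, 2 of the 9 genes were lower in Pkd1KO+ciliaKO males, Pcx and Slc37a4, when 8.89% of all genes tested passed the threshold and 3.26% were lower. The median of the 9 was -0.29 on the log2 scale, against 0.01 over all genes. The comparison shares its 8 noncystic males with the one above.

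Pcx ranged from 375 to 702 CPM in Pkd1KO+ciliaKO males (median 496, n = 9), and 7 of the 9 were below every noncystic male. It fell by 0.64 ± 0.14 on the log2 scale, 1.56-fold (edgeR adjusted p = 0.00804). Slc37a4, which admits glucose-6-phosphate to the endoplasmic reticulum, ranged from 108 to 177 CPM in noncystic males (median 139) and from 79.9 to 109 CPM in Pkd1KO+ciliaKO males (median 98.0). The upper end of the Pkd1KO+ciliaKO males overlapped only the lowest noncystic male, replicate 3 at 108 CPM. Slc37a4 fell by 0.53 ± 0.10, 1.44-fold, with an edgeR adjusted p of 0.00206. Both calls held in all 10 alternatives and in each of the 17 fits that left out 1 mouse. With the proximal tubule markers in the fit, Slc37a4 was -0.33 ± 0.07 (edgeR adjusted p = 0.00516) and Pcx was -0.66 ± 0.17 (edgeR adjusted p = 0.0235). In the same fit Pck1 moved from -0.55 to -0.91 ± 0.19 (edgeR adjusted p = 0.00778) and G6pc from -0.69 to -0.18 ± 0.14 (edgeR adjusted p = 0.463).

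Pck1 split the Pkd1KO+ciliaKO males. In 7 of them it lay between 2929 and 3954 CPM, and in replicates 6 and 8 it stood at 7813 and 6084 CPM within the range of the noncystic males. Over all 9 mice the log2 fold change was -0.55 ± 0.20 (edgeR adjusted p = 0.0964). Without the libraries that stood apart, noncystic replicate 3 and those 2, it was -0.81 ± 0.14, with an edgeR adjusted p of 0.00154. Leaving out replicate 6 alone was enough to bring Pck1 past the threshold. The same replicates 6 and 8 had the highest Ppargc1a of the group (235 and 252 CPM, against 107 to 164 CPM in the other 7), and the lowest Khk (282 and 254 CPM, against 404 to 489 CPM) and G6pc (122 and 93.1 CPM, against 141 to 255 CPM). Kap, an androgen-responsive proximal tubule gene, stood at 2893 and 3185 CPM in these libraries and at 10770 to 19610 CPM in the other 7. Noncystic male replicate 3, which also stood apart, had the highest Ppargc1a (188 CPM) and the lowest Khk (328 CPM) and G6pc (122 CPM) of its group. Its Pck1 was 7733 CPM, and its Kap was 7176 CPM, against 14590 to 20780 CPM in the other noncystic males. Whether the differences in Kap have a part in the Pck1 values was not tested.

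Without those 3 libraries, 2240 of 15991 genes passed the threshold in Pkd1KO+ciliaKO against noncystic males, where 1422 did with all libraries. Of the 9 genes, 5 were then lower in Pkd1KO+ciliaKO males. Beside Pck1, Pcx and Slc37a4, these were G6pc at -0.67 ± 0.17 (edgeR adjusted p = 0.0154) and Tkfc at -0.29 ± 0.08 (edgeR adjusted p = 0.0303). With all libraries G6pc gave -0.69 ± 0.22, with an edgeR adjusted p of 0.0576, and Tkfc gave -0.23 ± 0.09, with an edgeR adjusted p of 0.116. Khk, Ppargc1a, Fbp1 and Pck2 lay between -0.29 (Khk) and 0.05 (Ppargc1a). Of the 16 proximal tubule markers, 3 were lower and none higher, with a median of -0.28. Of the 3 markers of segments S1 and S2, 2 were lower, Slc5a12 (-0.62) and the glucose cotransporter Slc5a2 (-4.48, 22.4-fold). The principal cell gene Fxyd4 (0.47, 1 of 4) and the distal gene Pvalb (1.81, 1 of 3) were higher. So were Ms4a2 (2.21, the 1 of 3 tested) and the injury marker Lcn2 (1.70, 1 of 4). Csf1r (-0.42, 1 of 3) and the hepatocyte gene Apoa1 (-0.97, 1 of 3) were lower. The medians of the 3 distal markers (-0.07) and the 3 macrophage markers (0.48) had the opposite sign to Pvalb and Csf1r. The part of these markers in the result was not tested.

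Set directly against each other, Pkd1KO and Pkd1KO+ciliaKO males did not differ in any of the 9 genes by edgeR. Over all genes tested, 3.77% passed the threshold. At an unadjusted edgeR p under 0.05 there was 1 gene of the 9, against 3153 of all 15991. That gene was Ppargc1a, -0.33 ± 0.15 on the log2 scale with an edgeR adjusted p of 0.237, and -0.09 without the libraries that stood apart. DESeq2 also passed none. Pcx lay at 516 and 496 CPM in the median of the 2 genotypes, a log2 difference of -0.03 ± 0.13. The pattern that the study calls CDCA is a difference in the same direction of Pkd1KO from both noncystic and Pkd1KO+ciliaKO mice. By the edgeR fits used here, 174 genes met it in males and 305 in females, and none of the 9 did. The study's own sets, called with DESeq2, were larger.

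In females, no gene of the 9 passed the threshold in Pkd1KO against noncystic mice by edgeR or DESeq2, when 3.34% of all genes tested did by edgeR. At an unadjusted edgeR p under 0.05 there was 1 gene of the 9, against 2612 of all 15968. That gene was Pck1, which ranged from 4201 to 6716 CPM in noncystic females (median 5349, n = 7) and from 2827 to 6792 CPM in Pkd1KO females (median 4140, n = 8). Of the Pkd1KO females, 4 were below the lowest noncystic female, and replicate 5 was above the highest. The log2 fold change was -0.34 ± 0.15, with an edgeR adjusted p of 0.263. Leaving out Pkd1KO replicate 5 alone brought it past the threshold, at -0.46, and without the library that went against its label it was -0.33 (edgeR adjusted p = 0.324). The other 8 genes lay between -0.25 (G6pc) and 0.02 (Khk).

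Khk, which phosphorylates fructose, was the gene that moved in females without cilia. It ranged from 221 to 327 CPM in Pkd1KO+ciliaKO females (median 286, n = 6) and from 330 to 407 CPM in noncystic females (median 373). The ranges did not overlap, as for 1.73% of all genes tested in this comparison, although the lowest noncystic value, 330 CPM, belonged to the library whose Kif3a went against its label. Khk fell by 0.39 ± 0.09 on the log2 scale, 1.31-fold, with an edgeR adjusted p of 0.036, and it was the 1 gene of the 9 that passed when 2.54% of all genes tested did and 1.87% were lower. Without the 2 libraries that went against their labels it was -0.41 ± 0.10 (edgeR adjusted p = 0.0318). The call held in 7 of 10 alternatives and in 5 of 13 fits that left out 1 mouse. Of the 16 proximal tubule markers 3 were lower, with a median of -0.10, and with the markers in the fit Khk gave -0.35 ± 0.10 and an edgeR adjusted p of 0.175, where no gene of all those tested passed.

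Against Pkd1KO+ciliaKO females, Pkd1KO females had higher Khk. They ranged from 266 to 481 CPM (median 358), overlapping the Pkd1KO+ciliaKO females at the lower end. The log2 fold change was 0.40 ± 0.13, 1.32-fold, with an edgeR adjusted p of 0.049, the 1 call among the 9 genes when 11.7% of all genes tested passed the threshold and 7.05% were higher. Without the 2 libraries that went against their labels it was as large, 0.40 ± 0.14, and did not pass (edgeR adjusted p = 0.0786). The call held in 5 of 10 alternatives and in 3 of 14 fits that left out 1 mouse. Ppargc1a lay on the other side, at -0.24 ± 0.08 with an edgeR adjusted p of 0.0516, and at -0.27 ± 0.08 with an edgeR adjusted p of 0.0441 without those libraries. Its levels were 141 to 185 CPM in Pkd1KO and 178 to 229 CPM in Pkd1KO+ciliaKO females. In males, the matching Khk estimate was 0.27 ± 0.14 (edgeR adjusted p = 0.304).

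**Figure D4:**
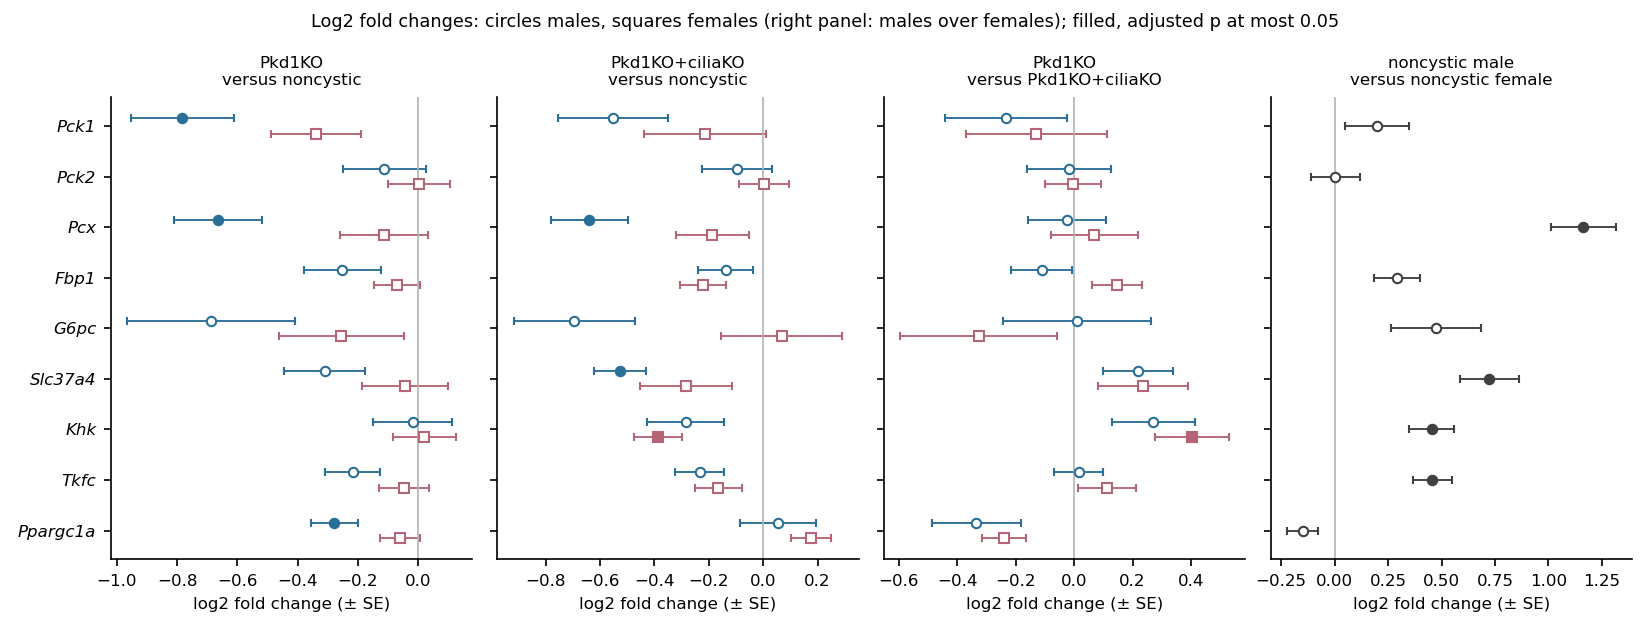
Log2 fold changes (horizontal axes, ± SE) of the 9 genes in the 3 genotype comparisons, males as circles and females as squares, and between noncystic males and females in the right panel, filled where the edgeR adjusted p is at most 0.05. Pcx gave -0.67 and -0.64 against noncystic males in the 2 mutant genotypes and 1.16 between the sexes.

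Sex made the widest difference in Pcx. In noncystic males it ranged from 580 to 1057 CPM and in noncystic females from 286 to 464 CPM (median 366), so that every male lay above every female. Such a gap was found for 5.93% of all genes tested in both sexes. The difference was 2.24-fold, 1.16 ± 0.15 on the log2 scale, with an edgeR adjusted p of 2.3e-05.

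In all, 4 of the 9 genes were higher in noncystic males and none was lower, when 27.5% of the 15828 genes tested passed the threshold and 15.3% were higher in males. Slc37a4 ranged from 57.2 to 114 CPM in noncystic females (median 81.7), and 7 of the 8 males were above the highest female. Its log2 difference was 0.72 ± 0.14, 1.65-fold (edgeR adjusted p = 0.00079). The fructose enzymes were also higher in males, Tkfc by 0.46 ± 0.09 (edgeR adjusted p = 0.00135) and Khk by 0.45 ± 0.11 (edgeR adjusted p = 0.00422), each 1.37-fold. In both, 7 of 8 males were above the highest female. These 4 calls held in all 6 alternatives tried for the sexes.

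Fbp1 (0.29 ± 0.11, edgeR adjusted p = 0.0521) and G6pc (0.47 ± 0.21, edgeR adjusted p = 0.103) gave higher estimates in males that did not pass, and Ppargc1a gave -0.15 ± 0.07 (edgeR adjusted p = 0.136). Without the noncystic libraries that stood apart or went against their label, all 3 passed, so that 7 of the 9 differed between the sexes. In that fit 5227 of 15828 genes passed, where 4353 did with all libraries. Ppargc1a then was lower in males by 0.22 on the log2 scale (edgeR adjusted p = 0.0203). The carboxykinases gave 0.20 ± 0.15 for Pck1 and 0.0032 ± 0.11 for Pck2 and did not pass in either analysis. Of the proximal tubule markers 5 were higher and 2 lower in males, with a median of 0.02, and all 5 genes listed as male-biased proximal tubule markers were higher, with a median of 5.49. Of 4 genes listed as female-biased, 2 were lower in males (Cyp4a14 and Prlr) and 2 higher (Cyp2d9 and Slc22a28). Tubule injury markers were lower in males for 3 of 4 (median -1.24), as were 2 of 4 principal cell and 2 of 4 intercalated cell markers.

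The male minus female difference in the genotype effect was tested directly and none of the 9 genes passed in any of the 3 comparisons by edgeR or DESeq2, where 0.0126%, 0.221% and 0.0316% of the 15828 genes did for Pkd1KO against noncystic, Pkd1KO against Pkd1KO+ciliaKO and Pkd1KO+ciliaKO against noncystic mice. At an unadjusted edgeR p under 0.05 there were 1, 0 and 2 of the 9, against 1279, 1256 and 869 of all 15828 genes. For Pcx, the change in Pkd1KO mice was more negative in males by 0.55 ± 0.21 on the log2 scale (unadjusted p = 0.0141 from edgeR's fit over all genes, adjusted p = 0.452). In Pkd1KO+ciliaKO against noncystic mice it was more negative in males by 0.45 ± 0.22 (edgeR adjusted p = 0.869). The G6pc difference in that comparison was -0.76 ± 0.37 (edgeR adjusted p = 0.891). Without the 6 doubted libraries these were -0.45, -0.52 and -0.69, and none passed. The falls of Pck1 and Pcx, called in Pkd1KO males and not in Pkd1KO females, were thus not shown to differ between the sexes, although with voom Pcx passed for Pkd1KO+ciliaKO against noncystic mice (-0.68, adjusted p = 0.0398).

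Across the 6 groups, noncystic males had the highest mean CPM for 7 of the 9 genes, the exceptions being Pck2 and Ppargc1a, whose highest means were in Pkd1KO+ciliaKO females. Pkd1KO+ciliaKO females had the lowest mean for 5 genes, Fbp1, Pcx, Khk, Tkfc and Slc37a4. Of the 45 steps between neighbouring groups in these orders, 7 were larger than the larger SD of the 2 groups. For Pcx these were the steps from noncystic males (814 ± 188 CPM, SD, n = 8) to Pkd1KO+ciliaKO males (523 ± 108, n = 9) and from Pkd1KO males (514 ± 85.8, n = 7) to noncystic females (369 ± 72.2, n = 7). For Khk it was the last step, from noncystic females (367 ± 26.0) to Pkd1KO+ciliaKO females (281 ± 40.8, n = 6). For Slc37a4 it was the step from noncystic males (140 ± 22.2) to Pkd1KO males (113 ± 25.3), for Tkfc that from Pkd1KO+ciliaKO males (303 ± 38.8) to noncystic females (262 ± 24.1), and for Ppargc1a the first, from Pkd1KO+ciliaKO (199 ± 22.4) to noncystic females (176 ± 14.2), and the last, from noncystic (156 ± 17.4) to Pkd1KO males (129). No neighbours differed beyond their spread for Pck1, Pck2, Fbp1 and G6pc. On the TPM scale the lowest mean of Fbp1 was in Pkd1KO males (1490 TPM, against 1548 TPM in Pkd1KO+ciliaKO females) and that of Pcx in Pkd1KO females (237 against 241 TPM), and the step of Tkfc was within the spread.

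Within groups, G6pc and its transporter Slc37a4 varied together from mouse to mouse. With each value centred on its group mean on the log2(CPM + 0.1) scale, Slc37a4 was the gene most like G6pc, and G6pc the gene most like Slc37a4, among 15828 genes over 45 mice (Pearson's r = 0.84, and 0.81 over the 39 mice without the 6 doubted libraries). Both share library and depth, and the value is a description without a test. G6pc and Khk gave 0.72 (0.57 without those libraries), Fbp1 and Khk 0.70 (0.55), and Pck1 and Tkfc 0.67 (0.63). The pair Pck2 and Khk was the most opposed, at -0.38, and was at -0.03 without the doubted libraries. The values that follow are given over 45 mice and, in parentheses, over the 39. Khk was most like Upb1 at 0.93 (0.87) and Setd3 at 0.90 (0.83), and Fbp1 most like Cryl1 at 0.85 (0.76) and Hadh at 0.83 (0.74). Pcx was most like Trappc9 at 0.88 (0.89) and Acp6 at 0.87 (0.87). Pck1 was most like the glycolytic enolase Eno1 at 0.73 (0.63) and Kank1 at 0.70 (0.57), and Tkfc most like Pklr at 0.76 (0.72) and Eno1 at 0.70 (0.71). Ppargc1a, with Irs1 at 0.84 (0.64) and Sim1 at 0.83 (0.63), was less like its nearest genes without those libraries. The nearest genes of Pck2 were Ddb1 at 0.83 (0.78) and Ogdh at 0.83 (0.80). After Slc37a4 the gene most like G6pc was Slc19a1 at 0.83 (0.76), and after G6pc the gene most like Slc37a4 was Inpp5b at 0.83 (0.76).

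**Figure D5:**
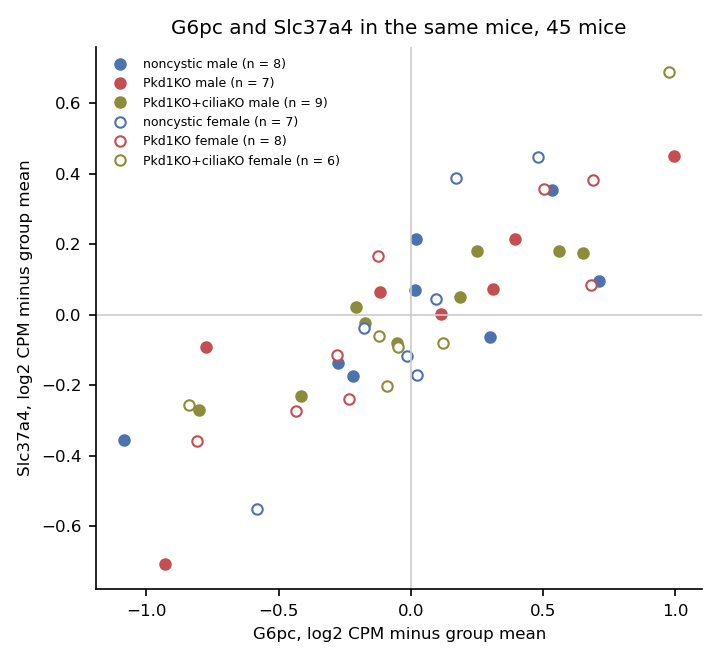
Log2 CPM of G6pc (horizontal axis) and Slc37a4 (vertical axis) in each of the 45 mice, each minus the mean of its own group, with males filled and females open. The points of the 6 groups run from lower left to upper right (Pearson's r = 0.84), with Pkd1KO+ciliaKO female 1 highest and Pkd1KO male 4 lowest on the Slc37a4 axis.

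Of 75 other genes of the pathway, all tested in both sexes, 6 passed the threshold in Pkd1KO against noncystic males (8% of the list, against 6.30% of all genes), 1 higher and 5 lower. Among genes that supply precursors, the mitochondrial dicarboxylate carrier Slc25a10 (-0.53) and the glutamine transporter Slc38a3 (-0.66) were lower. The transcription factors Cebpa (-0.36) and Foxo3 (-0.38) and the muscle-type phosphofructokinase Pfkm (-0.42) were lower too, and the hexokinase-like gene Hkdc1 (0.65) was higher. None of the 18 other enzymes of gluconeogenesis and the triose steps passed. In the 15 fits that left out 1 mouse, Pfkm was called in 15, Slc25a10 in 12, Hkdc1 in 9, Slc38a3 in 7, Cebpa in 6 and Foxo3 in 5.

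Slc38a3 differed between the 2 mutant genotypes, at -1.18 in Pkd1KO against Pkd1KO+ciliaKO males, 0.53 in Pkd1KO+ciliaKO against noncystic males and -0.94 in Pkd1KO against Pkd1KO+ciliaKO females, held in 16 of 16, 17 of 17 and 10 of 14 fits without 1 mouse. The list as a whole had 7 calls in Pkd1KO against Pkd1KO+ciliaKO males (3 higher, 4 lower; 9.33% of the list against 3.77% of all genes) and 9 in Pkd1KO+ciliaKO against noncystic males (3 higher, 6 lower; 12% against 8.89%), where the fructose transporters Slc2a5 (-0.41) and Slc5a10 (-0.43) were lower and Sord (0.47), which makes fructose from sorbitol, was higher. In females it had 3 calls in Pkd1KO against noncystic mice (1 higher, 2 lower; 4% against 3.34% of all genes), with Slc25a10 lower at -0.43, a call that held in each of 15 fits that left out 1 mouse. In Pkd1KO+ciliaKO against noncystic females there were 5 calls, all lower, 3 of them among the 9 genes of fructose supply and side steps (Glyctk at -0.53, Slc5a9 at -0.45 and Mpi at -0.35), beside Mpst (-0.60) and Hnf4a (-0.35). These 5 calls (6.67% of the list against 2.54% of all genes) each held in only 5 to 7 of 13 fits that left out 1 mouse. Pkd1KO against Pkd1KO+ciliaKO females gave 14 calls, 9 higher and 5 lower (18.7% against 11.7% of all genes), including Glyctk (0.65), Hnf4a (0.35) and Sord (-0.63), which held in 14, 12 and 6 of 14 such fits.

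Between noncystic males and females, 22 of the 75 genes passed (29.3%, against 27.5% of all genes), 17 of them higher in males. The monocarboxylate carrier Slc5a8 (1.79), the alanine aminotransferase Gpt (1.01) and the carbohydrate-response factor Mlxipl (0.96) were higher in males, as was Hnf4a (0.36). Fbp2, the muscle isoform of the phosphatase, was lower in males (-0.80). These log2 fold changes come from the same edgeR fits over all genes as those of the 9, and the list was not tested as a set.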

How the data were processed

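The submitters' processing notes and the study's methods name fastp 0.20.0, STAR 2.7.9 and featureCounts 2.0.0 on GRCm38.p6, after ribosomal depletion; strand use in counting is not stated. The authors deposited raw counts per gene for males and females separately, and TPM for the protein-coding genes left by a low-count filter (6 or more counts in 20% of the mice of that sex). TPM recomputed from the deposited counts differed by at most 7.84e-12%. Gene symbols were matched for 55141 of 55401 identifiers.

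Here the deposited counts were tested with edgeR 4.0.16 (R 4.3.3; TMM scaling, quasi-likelihood F test, Benjamini-Hochberg adjustment over all protein-coding genes past that filter), each comparison fitted on its 2 groups alone, and the sex difference of each effect as an interaction term over all 45 mice. The methods of the study used DESeq2; DESeq2 1.42.0, limma 3.58.1 (on log2(TPM + 1), and voom), other scaling and filters, a replicate block, marker covariates and leaving out mice were alternatives. Floors of 3 counts were 0.0226 to 0.0371 CPM and cover counting error only. The test was tried on simulated counts with known changes. Same-numbered mice of different groups did not deviate together (correlations from -0.33 to 0.36), so the numbers were not taken as pairs. No 2 libraries of a group agreed within sampling noise.

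The 9 genes, the pathway and marker lists and the doubted libraries were chosen with earlier results of these data known. All 9 genes are named; of the pathway list, at most 4 called genes per comparison and group of the list, those with the smallest p; and for likeness the 2 genes with the highest correlation. Promoter windows are from RefSeq; 9 of 9 symbols matched, with 12 starts. Figures were drawn with matplotlib. Some items of the pathway and marker lists are not reported here.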

Additional observations from a re-analysis of the deposited data

Results flagged for a closer look

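In 54 groups of 6 to 9 mice (9 genes in 6 groups), 6 had 1 mouse separated from the rest by a gap larger than Dixon's 95% limit allows for the group's range; chance alone flags about 1 group in 20. Pkd1KO female replicate 5 was high for Pck1 (6792 CPM, next 4594 CPM) and for Pcx (523 CPM, next 379 CPM). Pkd1KO+ciliaKO female replicate 1 was high for Pcx (437 CPM, next 326 CPM) and for Slc37a4 (111 CPM, next 66.0 CPM). Pkd1KO male replicate 4 was low for Pcx (341 CPM, next 494 CPM), and Pkd1KO+ciliaKO male replicate 8 was high for Tkfc (392 CPM, next 326 CPM). Pck1 and Pcx, which take consecutive steps, were both high in the same Pkd1KO female. That mouse also had the highest Pck2 (34.5 CPM), Fbp1 (931 CPM) and Tkfc (329 CPM) of its group, which were not flagged.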

How the results depend on the processing

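Pck1 and Pcx in Pkd1KO males, and Pcx and Slc37a4 in Pkd1KO+ciliaKO males, both against noncystic males, kept direction and call in every alternative (10 each) and every fit without 1 mouse (15 and 17). Without 1 mouse each, the number of the 9 genes that passed was 2 to 3 in Pkd1KO against noncystic males, 2 to 3 in Pkd1KO+ciliaKO against noncystic males, 0 to 0 in Pkd1KO against Pkd1KO+ciliaKO males, 0 to 1 in Pkd1KO against noncystic females, 0 to 2 in Pkd1KO against Pkd1KO+ciliaKO females and 0 to 1 in Pkd1KO+ciliaKO against noncystic females. In Pkd1KO+ciliaKO against noncystic males the count was 2, when 1422 of 15991 genes were called. It was 4 with DESeq2 (2152 of 15971 genes called) and 4 with the proximal tubule markers in the fit (1037 of 15991). It was 5 with voom and quality weights (2803 of 15991) and 5 without the libraries that stood apart (2240 of 15991). In Pkd1KO against Pkd1KO+ciliaKO males it was 1 (Khk) with the markers in the fit, when 1303 of 15991 genes were called. In Pkd1KO against Pkd1KO+ciliaKO females the count was 1, when 1869 of 15968 genes were called. It was 2 with 3 genotypes in one fit (2105 of 15968), 2 with DESeq2 (2503 of 15638) and 0 with no filter (1697 of 18674). In Pkd1KO+ciliaKO against noncystic females the count was also 1, when 405 of 15968 genes were called. It was 0 with 3 genotypes in one fit (487 of 15968), 0 with the markers in the fit (0 of 15968) and 2 on log2(TPM + 1) (1000 of 15968). Between the sexes the count was 4, when 4353 of 15828 genes were called. It was 7 with voom (6289 of 15828) and 7 without the noncystic libraries that stood apart (5227 of 15828). For the sex difference in Pkd1KO+ciliaKO against noncystic mice it was 1 with voom (Pcx, -0.68), when 222 of 15828 genes were called. The cause of these shifts was not tested.

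Ppargc1a in Pkd1KO males lost its call in 8 of 10 alternatives. Of the 29 gene values with an unadjusted edgeR p under 0.05 or a call in some alternative, none turned direction. These 29 were chosen in part by the same alternatives. Of the other 61, 55 of 458 values under the alternatives and 58 of 521 without 1 mouse changed sign. By that choice, none of the 61 could have an unadjusted p under 0.05 in the edgeR fits reported. With the replicate number as a block, which the check of pairing did not favour, the Khk calls in females were lost (counts of 0 in both comparisons that had 1), at -0.38 against noncystic mice and 0.40 against Pkd1KO+ciliaKO mice, and the Ppargc1a call in Pkd1KO males was lost; all genes called fell from 1869 to 625 in Pkd1KO against Pkd1KO+ciliaKO females and from 405 to 74 in Pkd1KO+ciliaKO against noncystic females.

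Over all genes, the number called ranged over the alternatives from 625 to 1621 (1008 as reported) in Pkd1KO against noncystic males, 178 to 1389 (603) in Pkd1KO against Pkd1KO+ciliaKO males, 765 to 2803 (1422) in Pkd1KO+ciliaKO against noncystic males, 246 to 962 (533) in Pkd1KO against noncystic females, 625 to 2634 (1869) in Pkd1KO against Pkd1KO+ciliaKO females, and 0 to 1357 (405) in Pkd1KO+ciliaKO against noncystic females. With 1812 or more counts per gene and library, depth did not limit these values.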
